A study of Mus musculus with 8 samples.

Results

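The genes of fatty acid oxidation were followed through the transcriptomes of peritoneal macrophages (pMacs) from WT and CD1d-KO mice. The list holds 34 genes of the 48795 in the data, named by symbol: 29 for the enzymes and transporters of mitochondrial and peroxisomal oxidation, and 5 for thioesterases and textbook targets of the PPAR receptors. All 34 symbols matched 1 Ensembl gene each. Of these, 31 had enough reads to be tested, and *Acot1*, *Pdk4* and *Angptl4* did not. Polyadenylated RNA was sequenced from 4 WT and 4 CD1d-KO libraries, which carry the replicate numbers 1, 2, 3 and 5 in both genotypes and are compared as 4 pairs. The series gives the WT mice as C57BL/6, while the text of the study calls the controls of this experiment littermates. The cells came from peritoneal lavage with no stimulation named in the labels. The methods name a pair of germline CD1d-KO lines, B6.129S6-Del(3Cd1d2-Cd1d1)1Sbp/J, which lacks both *Cd1d* genes, and a floxed CD1d allele crossed to PGK-Cre, which deletes in all tissues. Which of these lines was sequenced is not said. Mice were age- and sex-matched, and the labels give no age per library. Mice without CD1d also lack NKT cells, so the CD1d-KO macrophages had lived in an animal without that cell type.

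Fatty acids are oxidized in both organelles. Long acyl chains enter mitochondria as carnitine esters, and each round of β-oxidation there removes a C2 unit through a dehydrogenase, a hydratase, a second dehydrogenase and a thiolase, with electrons passed to the respiratory chain by the electron transfer flavoprotein. Peroxisomes take very long and branched chains through ABCD transporters, use an oxidase that makes hydrogen peroxide for the opening step, and send shortened chains on to mitochondria. Many of these genes respond to PPAR receptors when fatty acids reach the cell.

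*Cd1d1*, the gene for CD1d, was read first as a check of the labels. WT replicates 1, 2, 3 and 5 had 67.6, 174, 95.3 and 140 normalized counts of it, meaning counts after scaling every library to a common size. CD1d-KO replicates 2, 3 and 5 had 1.13, 0 and 1.09. The library labelled CD1d-KO replicate 1 had 60.1. This library therefore went against its label at *Cd1d1*. The counts over the list and the values of some genes are given with and without its pair, and all other results include it. Library totals ran from 13698864 to 19059432 expected counts, and both libraries of replicate 1 were the deepest. Macrophage identity was checked on 8 markers of large peritoneal macrophages, all of them tested, whose summed level was 3939 to 4739 TPM (a level per transcript length) in WT and 4341 to 4983 TPM in CD1d-KO libraries. This sum was higher in the CD1d-KO library of 4 of 4 pairs. The 8 B cell markers summed to between 166 and 508 TPM in WT and between 113 and 862 TPM in CD1d-KO libraries, and were higher in 2 of 4 pairs. The 6 neutrophil markers summed to between 11.6 and 16.1 TPM in WT and 18.4 to 25.2 TPM in CD1d-KO libraries, with *Ly6g* at 0, and the groups did not overlap. Only 2 of the 6 were tested, and these went opposite ways, with log2 fold changes of 0.83 and -0.87. The part of these marker differences in the results was not tested. Small macrophage and dendritic cell markers (8 genes) reached 104 TPM in WT and 128 TPM in CD1d-KO, and mast cell markers (6 genes) 20.6 and 16.5 TPM. T and NK cell, eosinophil, adipocyte and mesothelial lists each summed to under 8 TPM in every library, with *Ncr1*, *Adipoq*, *Cidec*, *Lep* and *Krt19* at 0. In bulk RNA, fewer cells of a type and less RNA per cell cannot be told apart.

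DNA windows of 3 stretches are shown to place the genes the results lead with or that share a start. Gene positions are from the GENCODE annotation of GRCm38. Windows before a start come from RefSeq (GRCm38.p6), printed 5′ to 3′ on the strand of the gene. *Ucp2*, the gene with the highest level on the list, lies on chromosome 7 from 100493337 to 100502020 on the plus strand, and its window chr7:100493108-100493336 ends at the base before its start. *Acadm*, for the medium-chain dehydrogenase, lies on chromosome 3 from 153922357 to 153944632 on the minus strand. Its window chr3:153944644-153944893 is shown because it holds a half-site of nuclear receptors, AGGTCA, on the opposite strand (TGACCT, in capitals). *Hadha* and *Hadhb*, which encode both chains of the mitochondrial trifunctional protein, start 86 bases apart on opposite strands of chromosome 5, and the 85 bases between them (chr5:30155163-30155247, plus strand) are printed as the stretch both genes share.
Ucp2: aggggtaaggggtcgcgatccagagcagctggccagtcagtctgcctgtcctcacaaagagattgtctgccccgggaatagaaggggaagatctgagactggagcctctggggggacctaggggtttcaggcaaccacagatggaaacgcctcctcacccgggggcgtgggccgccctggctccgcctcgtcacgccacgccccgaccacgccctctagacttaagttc
Acadm: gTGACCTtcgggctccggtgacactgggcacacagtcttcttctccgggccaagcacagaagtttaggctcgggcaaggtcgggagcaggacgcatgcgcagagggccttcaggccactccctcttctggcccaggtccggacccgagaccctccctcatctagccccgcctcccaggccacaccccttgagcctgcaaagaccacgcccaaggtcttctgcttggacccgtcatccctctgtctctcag
Hadha to Hadhb: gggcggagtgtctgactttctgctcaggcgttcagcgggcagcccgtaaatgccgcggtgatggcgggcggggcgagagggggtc

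Of the list, 28 genes had a RefSeq window of 250 bases before the start, and *Crat*, *Hsd17b4*, *Angptl4*, *Decr1*, *Acaa2* and *Abcd2* had none in the table used. On either strand AGGTCA was found for 5 of the 28 (*Acadm*, *Acadvl*, *Cat*, *Cpt1a* and *Echs1*), and in 14% of 32851 windows of all genes. The direct repeat with a 1-base spacer that PPAR dimers are known for, AGGTCANAGGTCA, which contains the half-site, was in 0 of the 28 and in 0.0335% of all windows. The extended half-site TCAAGGTCA, which also contains AGGTCA, was in 0 of the 28 and in 0.387% of all windows. These are matches of letters and not sites of binding.

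In these pMacs the levels of the list differed by orders of magnitude. *Ucp2*, an inner-membrane carrier of mitochondria, stood at 746 ± 380 TPM in WT and 586 ± 317 TPM in CD1d-KO pMacs (SD, n = 4 each). *Cat*, the catalase that breaks down peroxisomal hydrogen peroxide, followed at 207 ± 43.8 and 186 ± 50.4 TPM, and *Hadha* at 86.2 ± 9.73 and 79.4 ± 6.17 TPM. Over all 8 libraries *Etfa*, *Acadl*, *Crat*, *Hadhb*, *Echs1* and *Acadvl* had mean levels between 38.5 and 52.4 TPM. At the other end *Ehhadh* had 1.02, *Angptl4* 0.593, *Pdk4* 0.376 and *Acot1* 0.0838 TPM. The plot of levels by role shows that each role except the thioesterases and PPAR targets held all of its genes above 0.5 TPM in every library.

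**Figure D1:**
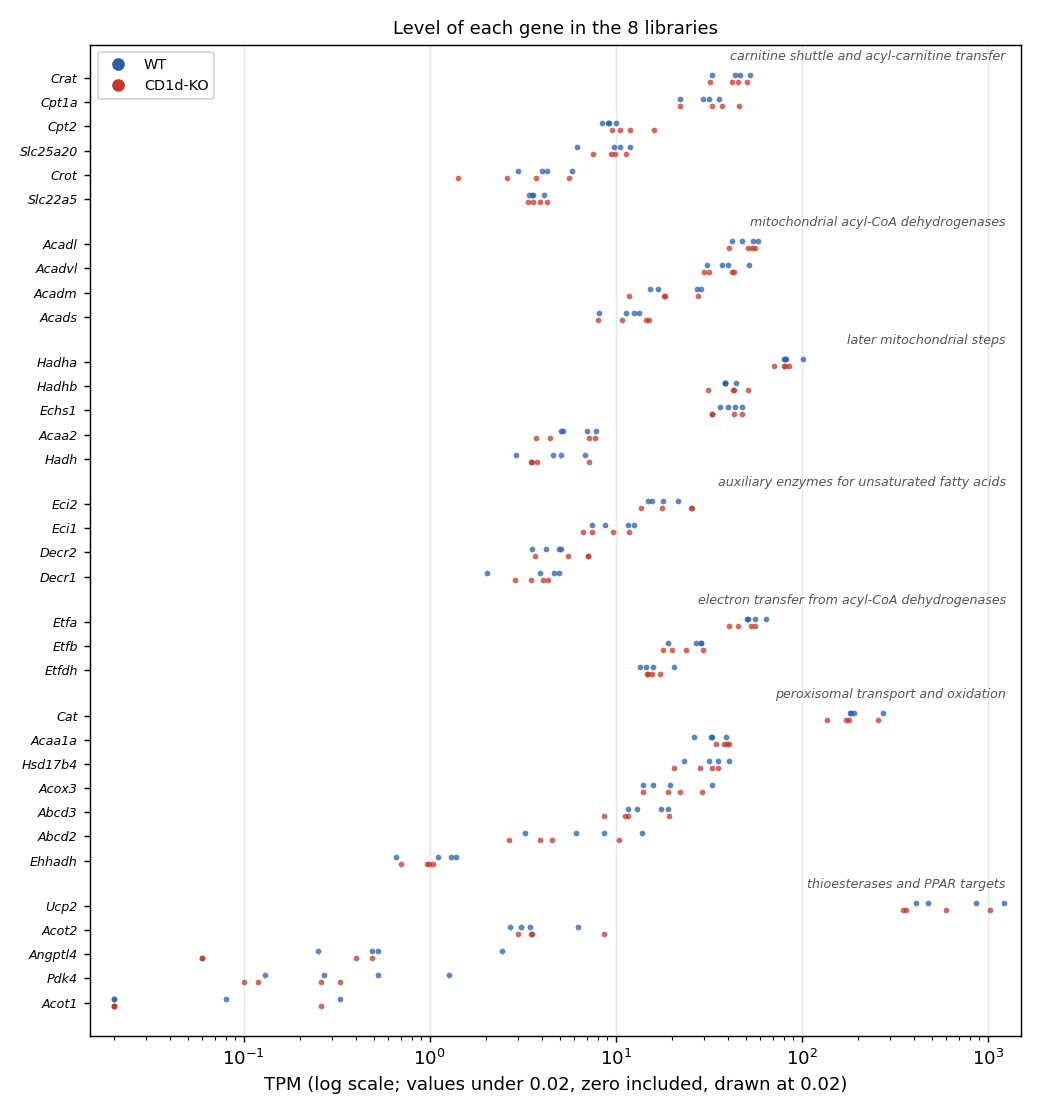
Level of the 34 genes in each library in TPM on a log axis, grouped by role, with 1 point per library (blue WT, red CD1d-KO, 4 each). *Ucp2* and *Cat* lie highest at means of 666 and 197 TPM, *Acot1*, *Pdk4* and *Angptl4* lowest, and the genotypes overlap for every tested gene.

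Where several genes can serve 1 step, a single isoform often carried most of the RNA. Of the carnitine palmitoyltransferases that open the mitochondrial route, *Cpt1a* had 32.2 TPM over all libraries, *Cpt1b* 0.985 and *Cpt1c* 0.0538, where reads of *Cpt1b* can be shared with read-through transcripts of its neighbour *Chkb*. Of the peroxisomal multifunctional enzymes, *Hsd17b4* had 31.1 TPM against 1.02 for *Ehhadh*. Peroxisomal thiolase RNA was assigned to *Acaa1a* at 35.6 TPM and to *Acaa1b* at 0.0125 TPM, and both transcripts share 96.6% of their bases over 1428 aligned bases, so this split depends on how shared reads were divided. Among 6 acyl-CoA thioesterases of different compartments, *Acot9* had 34.7 TPM, *Acot8* 9.77, *Acot13* 9.04, *Acot2* 4.28, *Acot4* 0.123 and *Acot1* 0.0838. The branched-chain oxidase *Acox3* had 20.9 TPM, and of the transporters *Abcd3* had 14.1 and *Abcd2* 6.69 TPM.

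**Figure D2:**
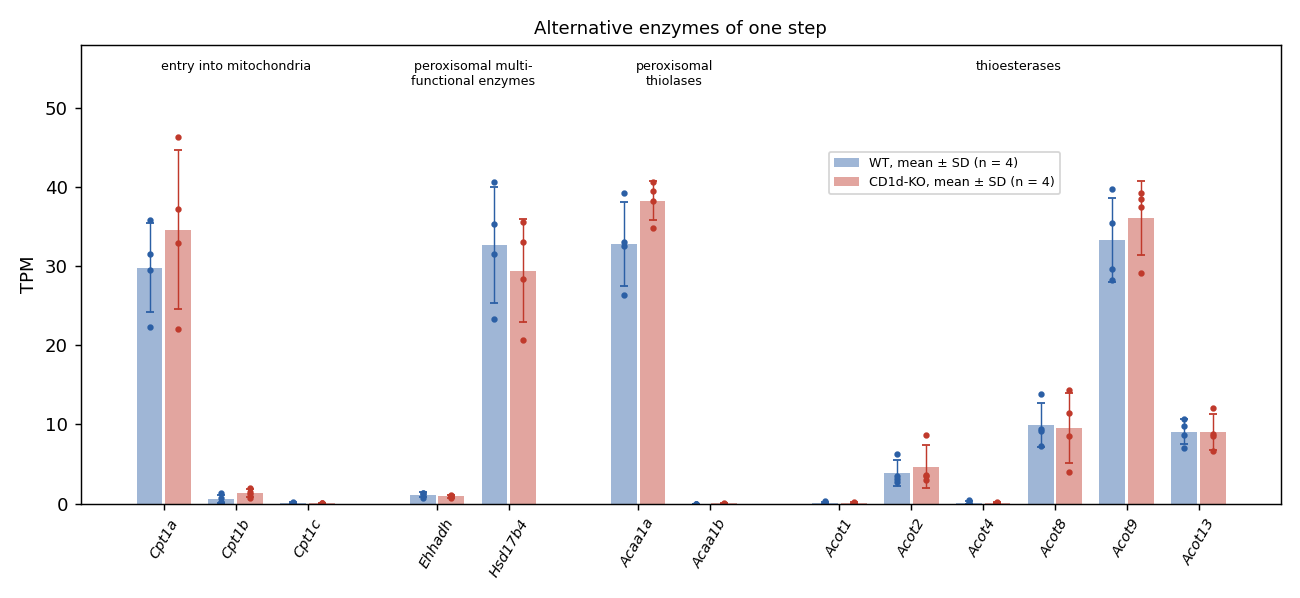
Mean TPM with SD (bars and whiskers, n = 4) and each library (points) for genes of the same kind of step, blue for WT and red for CD1d-KO. *Cpt1a*, *Hsd17b4* and *Acaa1a* exceed their alternatives in both genotypes, and of the 6 thioesterases drawn *Acot9* is highest at 34.7 TPM over all libraries.

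The central comparison asked whether these genes differ between CD1d-KO and WT pMacs, in a study that examined lipid metabolism in these cells. No gene of the list passed the thresholds of the study (a fold change above 1.5 at an adjusted p under 0.01), 0 of 31, by edgeR's quasi-likelihood test with replicate and genotype in the model and Benjamini-Hochberg adjustment. Over all 13040 genes tested, 0.0383% were called higher and 0% lower by this rule. With the library labelled CD1d-KO replicate 1 included, *Cd1d1* itself was not called in this fit (log2 fold change -3.42, edgeR adjusted p = 0.233). A count of 0 on the list therefore does not show that its genes were unchanged. At an edgeR adjusted p under 0.05 the count on the list was still 0, beside 53 of the 13040 genes tested. The smallest adjusted p on the list was 0.144. At an unadjusted p under 0.05, 5 genes were lower in CD1d-KO pMacs (*Abcd2*, *Ucp2*, *Acadm*, *Abcd3* and *Etfa*), which is 16.1% of the list against 5.01% of all genes tested. In the same fit 1 gene, *Acaa1a*, was higher, which is 3.23% against 7.35%. DESeq2 gave an adjusted p to 30 list genes and called 0 of them. Over all genes it called 0.669% higher and 0.32% lower. A DESeq2 adjusted p under 0.05 was reached by 2 of the 30 (*Ucp2* 0.0154 and *Abcd2* 0.0429). Among genes tested in both fits, 307 of 10614 reached it. Without the replicate number in the edgeR model, 0 genes of the list were lower and 0 higher at an unadjusted p under 0.05. The shares over all genes in that fit are not given, so whether the list stood apart there is not known.

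The fold changes were small and mostly below 0. The median log2 fold change (CD1d-KO over WT) of the 31 tested genes of the list was -0.10, with a range from -0.57 to 0.31. The median was 0.00 for all genes tested. The log2 fold change was below 0 for 22 of 31 genes (71%), compared with 49% of all genes. The CD1d-KO library had the lower normalized count in each of the 4 pairs for 10 genes (32.3%, against 10.1% of all genes): *Acadm*, *Hadha*, *Echs1*, *Eci1*, *Etfa*, *Abcd2*, *Abcd3*, *Hsd17b4*, *Cat* and *Ucp2*. It had the higher normalized count in each pair for 3 (*Decr2*, *Acaa1a* and *Acot2*), where the share over all genes was 10.6%. On TPM, *Acadm*, *Hadha*, *Eci1* and *Etfa* were higher in CD1d-KO in pair 2, and *Abcd3* in pair 1. *Echs1* had 47.8 TPM in both libraries of pair 1. *Abcd2*, *Hsd17b4*, *Cat* and *Ucp2* stayed lower in each pair on TPM. *Decr2* and *Acot2* stayed higher, but *Acaa1a* was lower in CD1d-KO in pair 3 (38.3 against 39.3 TPM). The genotypes overlapped for 31 of 31 genes, and over all genes 1.04% were higher and 0.913% lower without overlap. Genes of a pathway are not independent of one another, and no test of the list as a whole was made.

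Without the pair of replicate 1, whose CD1d-KO library holds *Cd1d1* reads, 0 of 31 genes were called, beside 7 of all 12964 tested. In these 3 pairs 4 genes were lower at an unadjusted p under 0.05 (*Abcd2*, *Abcd3*, *Cat* and *Ucp2*, 12.9% against 3.68% of all genes), and 0 were higher (5.55% of all genes). The CD1d-KO normalized count was lower in 3 of 3 pairs for 12 genes (38.7% against 15.8%). It was higher in 3 of 3 pairs for 4 genes, *Slc22a5*, *Decr2*, *Acaa1a* and *Acot2* (12.9% against 15.8%). The median log2 fold change of the list was -0.11. *Acaa1a* without this pair had an unadjusted p of 0.0564 at a log2 fold change of 0.26.

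**Figure D3:**
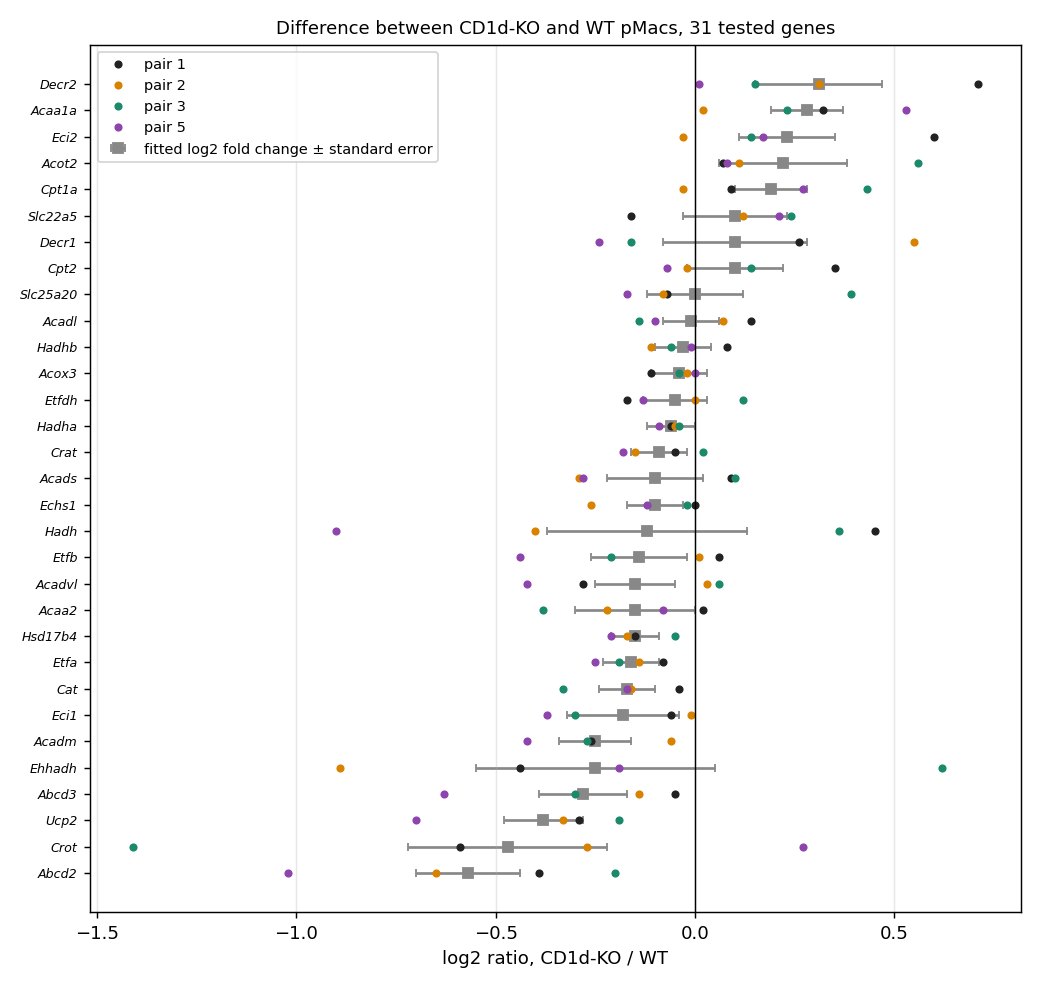
Log2 ratio of CD1d-KO to WT for the 31 tested genes, with the fitted value and its standard error (grey squares and bars) and the ratio of normalized counts in each pair (coloured points, 0.5 added to each count). Fitted values run from -0.57 (*Abcd2*) to 0.31 (*Decr2*), with 22 below 0, and the points of pair 5 lie farthest left for *Abcd2*, *Ucp2*, *Abcd3* and *Acadm*.

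In most of these genes, as in most of all genes tested, the pair took a larger share of the variation than genotype. Of the sum of squares of log2 normalized counts over the 8 libraries, the pair took a median of 70.6% and genotype 12.8% over the 31 genes. Over all genes tested the medians were 64.7% and 7.18%. The share of the pair exceeded that of genotype for 28 of 31 genes (90.3%, against 90.2% of all genes). The pair term has more levels than genotype and so takes a larger share of pure noise, for which these shares are not corrected. The median ratio of the list was -0.05, -0.06, -0.04 and -0.17 on the log2 scale in pairs 1, 2, 3 and 5, so that pair 5 held the largest shift. In that pair the B cell markers summed to 489 TPM in the WT and 862 TPM in the CD1d-KO library, the mast cell markers to 20.6 and 5.06 TPM, and the eosinophil markers to 3.52 and 7.14 TPM. The part of these differences in the ratios was not tested.

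Of the genes with a lower value in CD1d-KO pMacs, *Ucp2* had the most reads. Its normalized counts were 16010, 7153, 6466 and 13167 in WT replicates 1, 2, 3 and 5, and 13080, 5700, 5687 and 8123 in CD1d-KO replicates of the same numbers. Replicates 1 and 5 were high and replicates 2 and 3 low in both genotypes, the CD1d-KO value was lower in 4 of 4 pairs, and the groups overlapped. The log2 fold change was -0.38 (standard error 0.10, unadjusted p = 0.00544, edgeR adjusted p = 0.179), a fitted change of -22.9%. It lay between -0.44 and -0.27 when each pair was left out, and was nearest to 0 without pair 5. An exon of *Dnajb13* on the opposite strand shares 305 bases with *Ucp2*, and whether the counting used strand is not stated.

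The lowest fold change among the tested genes of the list belonged to a peroxisomal gene. *Abcd2* encodes a transporter that carries very long-chain acyl-CoA into peroxisomes. Its normalized counts were 650, 353, 183 and 466 in WT and 497, 225, 160 and 230 in CD1d-KO replicates 1, 2, 3 and 5. The order of the pairs was as for *Ucp2* in WT, with replicate 1 highest and replicate 3 lowest in both genotypes, and the ranges overlapped. *Abcd2* had a log2 fold change of -0.57 (standard error 0.13, unadjusted p = 0.00278, edgeR adjusted p = 0.144), a fitted change of -32.8%. With no filter on counts its adjusted p was 0.00352, at a fold change that did not reach 1.5, and without pair 5 its log2 fold change was -0.42. *Abcd3*, a transporter of long and branched acyl chains, had 530, 412, 384 and 512 normalized counts in WT and 513, 373, 312 and 330 in CD1d-KO pMacs. Pair 5 differed most, with a log2 ratio of -0.63, and pair 1 least, with -0.05. The fit gave -0.28 (standard error 0.11, unadjusted p = 0.0339, edgeR adjusted p = 0.358), and without pair 5 it was -0.16 (unadjusted p = 0.137).

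Within the peroxisome, *Hsd17b4*, the multifunctional enzyme with hydratase and dehydrogenase activity, had 887, 855, 618 and 897 normalized counts in WT and 801, 761, 596 and 774 in CD1d-KO pMacs. WT replicate 3 stood apart from the other WT libraries, and replicate 3 was lowest in both genotypes. Its log2 fold change was -0.15 (standard error 0.06, unadjusted p = 0.0547). *Cat* had 5842, 4825, 4799 and 4460 normalized counts in WT and 5686, 4333, 3820 and 3957 in CD1d-KO pMacs, lower in 4 of 4 pairs with overlap between the groups. The log2 fold change of *Cat* was -0.17 (standard error 0.07, unadjusted p = 0.0507). *Acox3* had a ratio within 0.11 of 0 on the log2 scale in all 4 pairs and a fitted value of -0.04 (standard error 0.07). *Ehhadh*, with 20.2 to 40.5 normalized counts in WT, gave ratios from -0.89 to 0.62 and a standard error of 0.30, so that a change of moderate size was not detectable at this depth.

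*Acaa1a*, the peroxisomal thiolase, was the 1 gene with a higher value at an unadjusted p under 0.05. Normalized counts were 509, 666, 683 and 495 in WT and 634, 677, 800 and 717 in CD1d-KO replicates 1, 2, 3 and 5. WT replicates 1 and 5 were low, and the difference was largest in those pairs and smallest in pair 2. The log2 fold change was 0.28 (standard error 0.09, unadjusted p = 0.0173, edgeR adjusted p = 0.267), and in DESeq2 the adjusted p was 0.397. Its exons overlap those of *Myd88* on the opposite strand over 290 bases. Among all 10 peroxisomal genes of the list, counting *Crot*, *Eci2* and *Decr2* from other roles, the median log2 fold change was -0.16. Of these, 7 of 10 (70%) were below 0, beside 71% of the whole list and 49% of all genes.

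**Figure D4:**
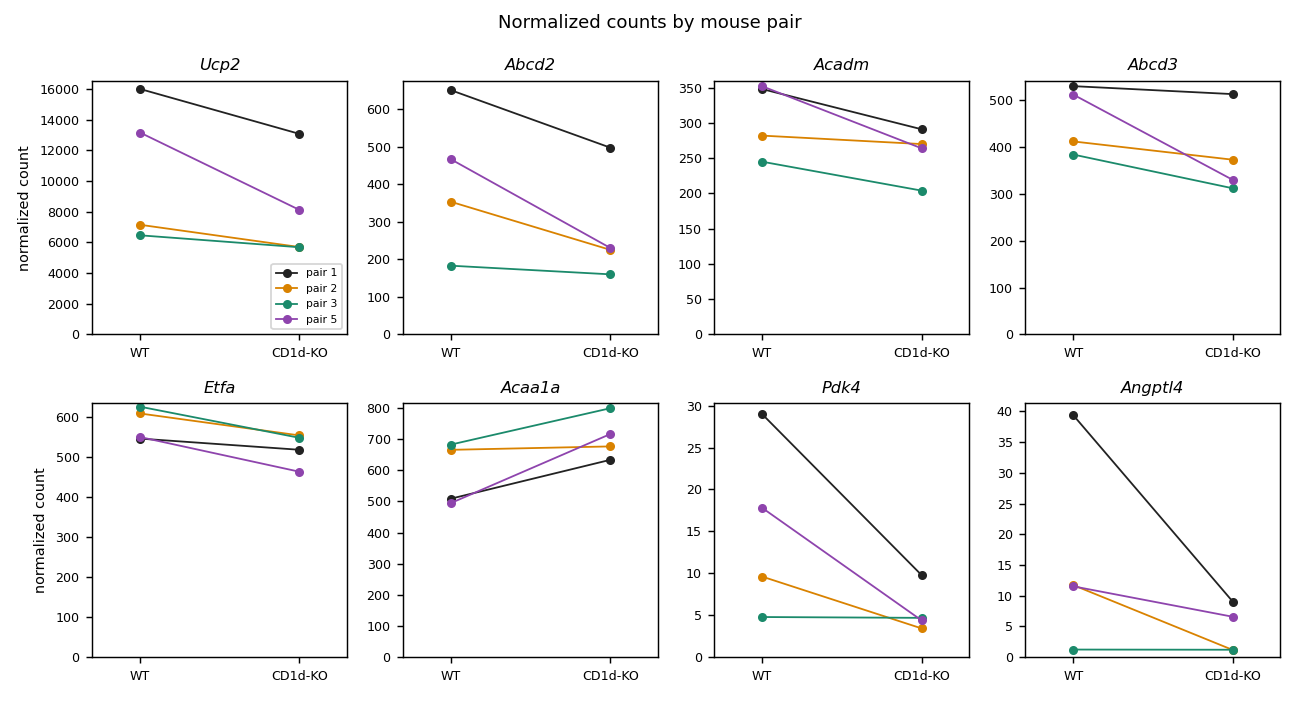
Normalized counts in the WT and CD1d-KO library of each pair (1 line per pair, axes start at 0) for 6 tested genes and for *Pdk4* and *Angptl4*, which were not tested. The lines of pair 5 are steepest for *Ucp2*, *Abcd2*, *Abcd3*, *Acadm* and *Etfa*, *Acaa1a* is higher in CD1d-KO in 4 of 4 pairs, and the level of *Pdk4* and *Angptl4* in pair 3 is near 0 in both genotypes.

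The mitochondrial acyl-CoA dehydrogenases, which catalyse the opening step for chains of different length, had log2 fold changes of -0.15 (*Acadvl*), -0.01 (*Acadl*), -0.25 (*Acadm*) and -0.10 (*Acads*), of which *Acadl* and *Acads* were above 0 on the TPM scale. *Acadm* had normalized counts of 348, 282, 245 and 352 in WT and 291, 270, 204 and 264 in CD1d-KO replicates. Replicate 3 was lowest in both genotypes, the CD1d-KO value was lower in every pair, and the groups overlapped. The standard error for *Acadm* was 0.09 (unadjusted p = 0.0238, edgeR adjusted p = 0.308), and its log2 fold change lay between -0.31 and -0.20 when pairs were left out. Without pair 1, 3 or 5 the unadjusted p of *Acadm* was above 0.05 (0.0715, 0.055 and 0.0959). *Acadl*, the highest of the 4 at 50.6 TPM, had CD1d-KO values above WT in pairs 1 and 2 and below it in pairs 3 and 5. *Acadvl* shares 1151 exon bases with *Dvl2* on the opposite strand.

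Electrons from these enzymes pass to the flavoprotein encoded by *Etfa* and *Etfb* and on to its dehydrogenase, *Etfdh*. *Etfa* had 547, 610, 627 and 551 normalized counts in WT and 519, 555, 549 and 464 in CD1d-KO pMacs. Only CD1d-KO replicates 2 and 3 reached into the WT range, which began at 547. The log2 fold change of *Etfa* was -0.16 (standard error 0.07, unadjusted p = 0.0477, edgeR adjusted p = 0.398), and with any pair left out the unadjusted p was above 0.05 (0.0668 to 0.138). *Etfb* (-0.14, standard error 0.12) and *Etfdh* (-0.05, standard error 0.08) were also below 0.

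The later mitochondrial steps had fitted values between -0.15 and -0.03. *Hadha*, the chain of the trifunctional protein with hydratase and dehydrogenase activity, had 1630, 1839, 1637 and 1649 normalized counts in WT and 1564, 1773, 1594 and 1546 in CD1d-KO pMacs. Its CD1d-KO value was lower in every pair, by a log2 ratio between -0.09 and -0.04, and the fit gave -0.06 (standard error 0.06). *Hadhb*, the thiolase chain that starts beside *Hadha*, had -0.03 (standard error 0.07) and 0.050 on the TPM scale, and a pseudogene with 99.8% identity (*Gm13910*) had at most 45.6 counts in a library. *Echs1*, the short-chain hydratase, had -0.10 (standard error 0.07), and *Acaa2*, the thiolase of the matrix, -0.15 (standard error 0.15). *Hadh*, the short-chain dehydrogenase, had ratios of 0.45, -0.40, 0.36 and -0.90 in pairs 1, 2, 3 and 5, and a fitted value of -0.12 (standard error 0.25). The median over these 5 genes was -0.10.

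Genes of the carnitine shuttle lay on both sides of 0, with a median log2 fold change of 0.05 and 2 of 6 genes below 0. *Cpt1a*, the rate-controlling enzyme of mitochondrial entry, had normalized counts of 1142, 998, 1290 and 1502 in WT and 1215, 978, 1734 and 1806 in CD1d-KO pMacs. Values in pairs 1 and 2 were close, those of pairs 3 and 5 were higher in CD1d-KO, and the groups overlapped. Its log2 fold change was 0.19 (standard error 0.09, unadjusted p = 0.0601, edgeR adjusted p = 0.425). *Cpt2*, the inner-membrane enzyme of the shuttle, had 0.10 (standard error 0.12), and the carnitine-acylcarnitine carrier *Slc25a20* 0.00 (standard error 0.12). The plasma membrane carnitine transporter *Slc22a5* had 0.10 (standard error 0.13), and its transcript is 98.3% identical to that of *Slc22a21* over 831 bases. *Crat*, for short acyl chains, had -0.09 (standard error 0.07). *Crot*, which makes carnitine esters in peroxisomes, had 142, 91.6, 121 and 115 normalized counts in WT and 94, 76, 45.4 and 138 in CD1d-KO pMacs. CD1d-KO replicate 3 was the lowest of the 8 and CD1d-KO replicate 5 the second highest. The log2 fold change of *Crot* was -0.47, but its standard error was 0.25.

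Enzymes that prepare unsaturated chains for oxidation had a median of 0.16, with 3 of 4 above 0. The median ratio of the 4 genes was 0.43, 0.15, -0.01 and -0.11 in pairs 1, 2, 3 and 5, so that pair 1 held the largest rise. *Decr2*, the peroxisomal dienoyl-CoA reductase, had the highest log2 fold change of the list at 0.31 (standard error 0.16, unadjusted p = 0.0943). Its ratios were 0.71, 0.31, 0.15 and 0.01 in pairs 1, 2, 3 and 5. *Eci2*, an isomerase found in peroxisomes and mitochondria, had 0.23 (standard error 0.12), while its mitochondrial counterpart *Eci1* had -0.18 (standard error 0.14). The mitochondrial reductase *Decr1* had 0.10 (standard error 0.18). Without pair 1 the log2 fold changes were 0.16 for *Decr2* (unadjusted p = 0.396 by edgeR), 0.10 for *Eci2*, 0.04 for *Decr1* and -0.23 for *Eci1*.

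The PPAR targets included the genes with the widest ratios and the fewest reads. *Pdk4*, a kinase that turns off pyruvate dehydrogenase when fat is burned, had raw counts of 39, 9, 4 and 17 in WT and 13, 3, 4 and 4 in CD1d-KO replicates 1, 2, 3 and 5. *Angptl4*, a secreted inhibitor of lipoprotein lipase, had 53, 11, 1 and 11 counts in WT and 12, 1, 1 and 6 in CD1d-KO libraries. For both genes the CD1d-KO count was lower in pairs 1, 2 and 5 and equal in pair 3, and replicate 1 had the highest count in each genotype. Neither passed the filter on counts of the edgeR fit. DESeq2, which fitted them but gave them no adjusted p, estimated a log2 fold change of -1.35 for *Pdk4* (standard error 0.73, unadjusted p = 0.0655) and of -1.72 for *Angptl4* (standard error 0.85, unadjusted p = 0.0427). Without pair 3 both passed the filter of edgeR and neither was called, with adjusted p-values of 0.296 and 0.36.

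The acyl-CoA thioesterases *Acot1* (cytosolic) and *Acot2* (mitochondrial) release free fatty acids from CoA and lie 15617 bases apart on chromosome 12. *Acot1* had raw counts of 1, 0, 0 and 5 in WT and 0, 0, 4 and 0 in CD1d-KO libraries. *Acot2* had normalized counts of 63.1, 60.7, 137 and 64.8 in WT and 66.1, 65.8, 203 and 68.7 in CD1d-KO pMacs. Replicate 3 was far above the other libraries in both genotypes, and the CD1d-KO value was higher in every pair. The log2 fold change of *Acot2* was 0.22 (standard error 0.16, unadjusted p = 0.192). The pair of transcripts is 95.1% identical over 1274 bases, so that the division of reads between them is uncertain.

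Genes of the same pathways outside the list were counted for comparison, from lists of mitochondrial and peroxisomal oxidation, peroxisome assembly and ketone bodies. Of 54 such genes 46 were tested, and 34 of them (73.9%, against 49% of all genes) had a log2 fold change below 0, with a median of -0.06. None was called, and at an unadjusted p under 0.05 there were 3 lower (6.52%, against 5.01% of all genes) and 1 higher (2.17% against 7.35%). These were *Acad12* (-0.42, an acyl-CoA dehydrogenase family gene), *Acbd5* (-0.25, an acyl-CoA binding protein of the peroxisomal membrane), *Pex5* (-0.19, the import receptor of peroxisomal enzymes) and *Auh* (0.23, a mitochondrial hydratase of leucine breakdown). All 16 genes of the peroxisome assembly list were tested, and 13 were below 0 (81.2%, against 49% of all genes) with a median of -0.07.

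The receptors that control many of these genes differed widely in level. *Ppard* had 46.2 TPM, *Pparg* 3.14 TPM and *Ppara*, the main receptor of oxidation genes in liver, 1.01 TPM. Their log2 fold changes were -0.07 (standard error 0.08), -0.60 (standard error 0.29, unadjusted p = 0.0717) and -0.04 (standard error 0.30). The coactivator *Ppargc1a* was at 0.0413 TPM and not tested. *Ppargc1b*, at 0.45 TPM, had normalized counts of 7.43, 6.39, 9.53 and 17.8 in WT and 23.3, 18.1, 14 and 22.9 in CD1d-KO pMacs, with a log2 fold change of 0.99 (standard error 0.37, unadjusted p = 0.0281). Without pair 1 the log2 fold change of *Ppargc1b* was 0.75 (edgeR adjusted p = 0.664).

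Of 14 other PPAR target genes 8 were tested, with a median of 0.15. *Cd36*, the fatty acid and oxidized lipoprotein receptor, had normalized counts of 25862, 17930, 18910 and 17731 in WT and 16983, 16915, 11724 and 15322 in CD1d-KO pMacs. In normalized counts every WT library was above every CD1d-KO library. On TPM the groups overlapped, at 876 to 1523 in WT and 571 to 976 in CD1d-KO, and pair 2 was higher in CD1d-KO. The log2 fold change of *Cd36* was -0.40 (standard error 0.12, unadjusted p = 0.0102, edgeR adjusted p = 0.226), and the DESeq2 adjusted p was 0.0381. Without pair 1 the log2 fold change was -0.33 (edgeR adjusted p = 0.529). *Acsl1*, which activates fatty acids to acyl-CoA, had a log2 fold change of 0.41 (standard error 0.12, unadjusted p = 0.0115), and *Hilpda*, a lipid droplet protein that restrains lipolysis, 0.37 (standard error 0.13, unadjusted p = 0.0188). Neither was called in this fit. Without pair 1 the log2 fold changes were 0.35 for *Acsl1* and 0.42 for *Hilpda*. The adjusted p of *Acsl1* ranged from 0.0222 with no filter on counts to 0.997 with no replicate block.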

How the data were processed

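The RNA of the 8 libraries was made into cDNA with a KAPA mRNA HyperPrep kit and sequenced single-end. The authors trimmed reads with Cutadapt, aligned them with STAR 2.5.2a and quantified genes of Ensembl GRCm38 with RSEM 1.3.0. The deposited expected counts are not normalized and divide shared reads among genes, and the deposited TPM values are scaled by transcript length and library. Whether counting used strand is not given in the sources used here.

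Symbols came from GENCODE M21 (48435 of 48795 IDs, 99.26%). Expected counts were rounded, filtered with filterByExpr, scaled by TMM and tested with edgeR 4.0.16 (R 4.3.3, ~ replicate + genotype, Benjamini-Hochberg over 13040 genes). DESeq2 1.42.0 and limma 3.58.1 (limma-trend on log2(TPM + 1)) were alternatives. The model was tested on simulated data. Libraries differed from one another beyond sampling noise in 28 of 28 pairs of libraries. The replicate numbers were taken as pairs because the model of the study held genotype and replicate id. Same-numbered libraries deviated together (correlations 0.487, 0.387, 0.505 and 0.207 for replicates 1, 2, 3 and 5). The highest correlation with another number was below these for replicates 1, 2 and 3 (at most 0.059), but was 0.22 for replicate 5, slightly above its own pair. That the replicates are separate mice rests on the design text, which calls them biological replicates. Similar transcripts were found with blastn 2.17.0 (at least 95% identity over 200 bases).

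The list, the other gene lists and the markers were chosen with earlier results of these data known. Named are all 34 genes of the list, other pathway and PPAR genes with an unadjusted p under 0.05, *Ppara*, *Ppard*, *Pparg*, *Ppargc1a* and *Ppargc1b*, and *Cd1d1*; some other genes are not reported here. Isoforms named for their level (such as *Cpt1b*, *Acaa1b* and *Acot9*) were added after values were seen, as was the count of pairs without replicate 1. The SDs of TPM cover the spread between the libraries of a genotype. Standard errors and p-values of fits with replicate in the model leave out the spread between pairs. They cover how the difference between genotypes varied from pair to pair.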

Additional observations from a re-analysis of the deposited data

Results flagged for a closer look

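Over 92 groups of 4 libraries (46 genes in each genotype), 13 held a library whose normalized count lay apart from the other 3. Chance gives about 1 in 20 for a single group. The groups share the same libraries and are not independent, so the count of 13 cannot be weighed against that rate. A share over all genes is not given. WT replicate 3 was low for *Crat* (885, others 1228 to 1261) and *Hsd17b4* (618, others 855 to 897). It was high for *Eci2* (273, others 176 to 191), *Acot2* (137, others 60.7 to 64.8) and *Hilpda* (373, others 95.1 to 134). CD1d-KO replicate 3 was high for *Acot2* (203, others 65.8 to 68.7) and *Acot1* (4.66, others 0), and WT replicate 5 for *Acot1* (5.23, others 0 to 0.743) and *Decr2* (100, others 76.7 to 80.2). WT replicate 2 was high for *Hadha* (1839, others 1630 to 1649) and *Pex5* (939, others 649 to 686). WT replicate 1 was high for *Cd36* (25862, others 17731 to 18910), and the library labelled CD1d-KO replicate 1 for *Hadh* (109, others 62.1 to 68.7). For *Acot1* these are 4 or 5 reads in a library.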

How the results depend on the processing

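No gene of the list passed the study thresholds under any alternative run (0 in each). The median log2 fold change stayed below 0 in all of them, from -0.121 without replicate 3 to -0.050 without replicate 5. Shares over all genes at an unadjusted p under 0.05 are given here only for the main fit and without replicate 1. With no replicate block, 0 genes of the list were higher and 0 lower at an unadjusted p under 0.05. With no filter on counts there were 2 higher and 8 lower, and 2 were lower in limma-trend on log2(TPM + 1). Leaving out each pair gave 0 to 3 higher and 3 to 5 lower, with 0 higher without replicate 1 or 5, 3 higher without replicate 2 and 3 lower without replicate 5. *Cd1d1* was not called in the main fit (-3.42). It was called in DESeq2 (-6.35), with no filter (-3.42) and without replicate 1 (-7.27), and its value ran from -7.27 to -2.81 when pairs were left out. Of 558 values for 43 named genes, 542 kept their direction and 16 turned, all for genes near 0 that were not called. *Slc25a20* turned with upper quartile factors (-0.008), no filter (-0.002), no replicate block (-0.015) and without replicate 3 (-0.11). On TPM the values were 0.005 for *Acadl*, 0.079 for *Acads*, 0.050 for *Hadhb*, -0.024 for *Decr1*, 0.067 for *Acox3* and 0.088 for *Ppara*. With each pair left out in turn, values ran from -0.11 to 0.065 for *Slc25a20*, from -0.059 to 0.038 for *Acadl* (above 0 without replicate 3 or 5), from -0.061 to 0.007 for *Hadhb* and from -0.34 to 0.15 for *Hadh* (above 0 without replicate 2 and 5 respectively). They ran from -0.037 to 0.21 for *Decr1* and from -0.21 to 0.17 for *Ppara*, both turning without replicate 2. *Acadl* without replicate 5 was at 0.024. The causes were not tested. Genes with few reads, such as *Pdk4*, *Angptl4* and *Acot1*, could not be resolved at this depth.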
